A study of Homo sapiens with 3 samples.

Results

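A set of 7 genes of the extrinsic, receptor-driven cell death pathway were followed across 3 messenger RNA libraries of HCT116 cells, an established human colorectal cancer line. The 7 genes were listed by symbol, with earlier results of these data known: TNFRSF10A, TNFRSF10B, TNFRSF10D, FAS, FADD, CASP8 and CFLAR, out of 15625 genes in the deposited table. All 7 had a mean of at least 1 FPKM over the 3 libraries and were among the 11216 genes tested. FPKM counts sequenced fragments relative to gene length in kilobases and to the total of the library. There was 1 library with a control shRNA (sh_control) and there were 2 with shRNA against circRAPGEF5 (sh_circRAPGEF5), a circular RNA from the RAPGEF5 locus, here called knockdown libraries 1 and 2. All 3 came from cells given an shRNA system and collected at 36 or 48 h, with no time given for any single library. The genotype of all 3 is given only as MT. Nothing in the labels tells if the pair of knockdown libraries came from different hairpins, from different cultures or from the same culture. The series title places the study in RAS/RAF/MEK/ERK signaling.

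Death receptors are cell surface proteins of the TNF receptor superfamily. TNFRSF10A (DR4) and TNFRSF10B (DR5) bind the ligand TRAIL, and FAS binds FAS ligand. Each carries an intracellular death domain that recruits the adaptor FADD, and FADD in turn recruits the initiator caspase CASP8. CFLAR (c-FLIP) resembles CASP8 but has no protease activity, and it sits in the same complex and limits CASP8 activation. TNFRSF10D (DcR2) binds TRAIL with a truncated death domain and acts as a decoy. In colorectal cancer cells the receptors are well known as targets of TRAIL and of antibodies against DR4 or DR5.

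The library sizes behind the FPKM values were 16298851 fragments in the control and 16519907 and 17517889 in knockdown libraries 1 and 2. They were recovered from the values, since FPKM of all 3 libraries were in ratios of whole reads for 100% of genes (relative tolerance 1e-10). With these sizes the gene lengths came out whole, within 0.0001 bases, in 90.1% of genes. Most epithelial markers were abundant, with EPCAM at 176 FPKM (control), 170.0 (library 1) and 191 (library 2) and KRT8 at 1031, 1084 and 1694. CDH1 was at 33.1, 20.3 and 26.7 FPKM and CDX2 at 4.24, 3.40 and 5.61, in the same order. VIL1 was the epithelial marker near 0, at 0.00944 FPKM in the control and listed at 0 in both others. Leukocyte markers summed over the 5 genes in the table gave 4.11 FPKM in the control, then 5.09 (library 1) and 8.59 (library 2). Within it CD68, a lysosomal protein of macrophages, went from 1.30 FPKM to 3.55 and 7.50, CORO1A from 2.59 to 1.34 and 0.898, and the pan-leukocyte marker PTPRC was listed at 0 in 2 libraries and at 0.00901 FPKM in library 2. The 3 fibroblast markers in the table summed to 14.04 FPKM in the control, 4.71 in library 1 and 8.49 in library 2, nearly all of it COL1A1 (13.4, 4.64 and 8.38). The 3 endothelial markers summed to 13.5, 11.2 and 15.6 FPKM, nearly all of it EGFL7, while VWF was at most 0.132. The part of these markers in the results was not tested.

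In both knockdown libraries the 3 TRAIL receptors among the members, and FAS, had higher levels than in the control. This was not so for FADD, CASP8 and CFLAR. TNFRSF10C, a TRAIL receptor outside the 7, was at 6.38 FPKM in the control, 16.8 in library 1 and 3.52 in library 2. Of the members TNFRSF10A lay farthest from the control, at 2.97 times its level in library 1 and 3.61 times in library 2. FADD and CASP8 lay close to the control, on opposite sides of it in the 2 libraries. CFLAR was at the control level in knockdown library 1 and well below it in knockdown library 2. None of the 7 genes passed the test across all genes, so these are values of 3 libraries and not called changes. In a limma fit of both knockdown libraries against the control, 0 of the 7 genes had an adjusted p under 0.05. Of all genes tested 0.0178% did, 2 in number, both higher. By unadjusted p under 0.05 it was 1 of the 7, higher, against 3.08% of all genes in that direction.

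**Figure D1:**
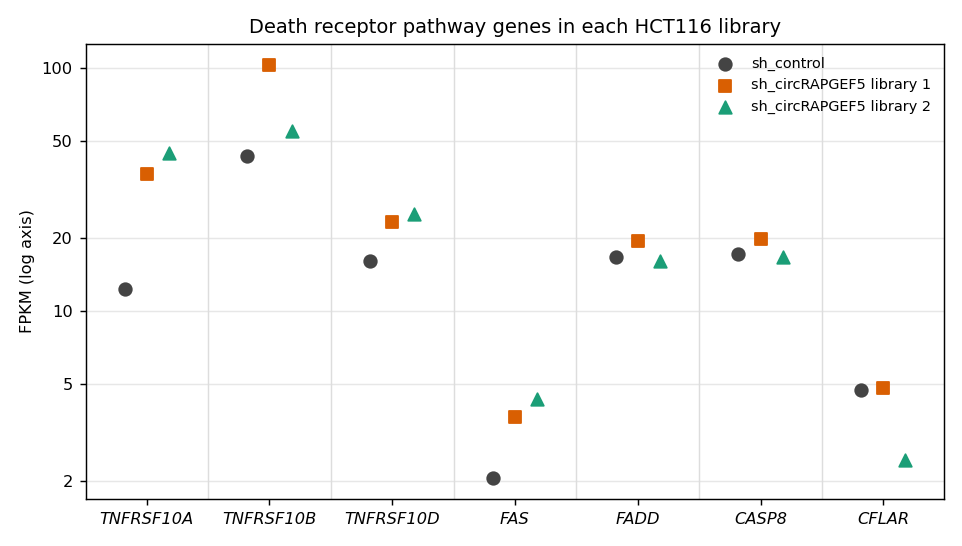
FPKM on a log axis for each of the 7 genes, with 1 point per library (circle, sh_control; square, knockdown library 1; triangle, knockdown library 2). For TNFRSF10A, TNFRSF10B, TNFRSF10D and FAS both knockdown points lie above the control point, and for CFLAR the point of knockdown library 2 lies apart, at 2.44 FPKM.

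Some stretches before a start site of FAS, CFLAR and CASP8 are shown to give the sequence context of a receptor above the control in both libraries, of the member lowest in library 2 and of one near the control. RefSeq promoter entries (GRCh38.p14) matched 4 of the 7 members, FAS, FADD, CASP8 and CFLAR; none for TNFRSF10A, TNFRSF10B and TNFRSF10D was used here. The start site listed first for each gene was used, with the 250 bases before it. Capitals mark matches, on either strand, to 5 motifs. The AP-1 letters were TGANTCA. Those of NF-kB were GGG and, after 5 bases of any kind, CC. SP1 was searched as GGGCGG, which can overlap an NF-kB match. The composite ATF-C/EBP site was searched as TGATGNAA. For the TATA box the letters were TATAAA. Among 35116 entries, 250-base windows held these letters in 6.57%, 54.4%, 42.6%, 3.14% and 10.7%, in that order. The first 3 lines are 30-base stretches around a match, and the fourth is the 230 bases before the first annotated exon of CASP8. Because a gene can have several start sites, the CFLAR stretch lies wholly in annotated exons of the gene (30 of 30 bases) and the FAS NF-kB stretch partly (20 of 30 bases).
FAS AP-1 match, chr10:88990548-88990577, plus strand: caagttgcTGAATCAatggagccctcccca
FAS NF-kB match, chr10:88990572-88990601, plus strand: tccccaacccGGGCGTTCCCCagcgaggct
CFLAR SP1 and NF-kB matches, chr2:201118609-201118638, plus strand: cgcgggGGGCGGGGAATTCCgcagacagga
CASP8 SP1 and NF-kB matches, chr2:201233213-201233442, plus strand: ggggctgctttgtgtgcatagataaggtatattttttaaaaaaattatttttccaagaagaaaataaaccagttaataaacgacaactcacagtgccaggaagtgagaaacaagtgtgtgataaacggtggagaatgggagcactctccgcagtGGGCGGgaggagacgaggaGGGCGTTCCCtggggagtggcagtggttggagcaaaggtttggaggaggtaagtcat
The FAS window held 1 AP-1 match, at position -242 counted from the start site, and 2 overlapping NF-kB matches. The CFLAR window held no AP-1 match and 2 NF-kB matches, 1 of them overlapping its SP1 match. SP1 letters were found in all 4 windows, AP-1 letters in that of FAS alone, and ATF-C/EBP and TATA letters in none. A match describes letters in a window, and no binding was measured.

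Among the receptors, TNFRSF10A (Entrez 8797, GRCh38 chromosome 8, 23190452 to 23225126, minus strand) was at 12.4 FPKM in the control, 36.8 in library 1 and 44.6 in library 2. Both knockdown values lay well above the control and near each other, at 40.7 ± 5.53 FPKM (SD, n = 2). On the scale used for testing, log2(FPKM + 1), the difference from the control was 1.499 in library 1 and 1.77 in library 2. Their mean of 1.63 ± 0.40 (SE) had an unadjusted p of 0.00153 and an adjusted p of 0.413 in limma. It ranked 37 from the highest of the 11216 genes. The adjusted p ranged from 0.298 to 0.924 over 9 other settings of the fit, so no setting made it a call.

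TNFRSF10B (Entrez 8795, chromosome 8, 23020133 to 23069179, minus strand) was the most abundant member per length in every library, at 43.4 FPKM in the control. It reached 103 FPKM in knockdown library 1 and 55.4 in knockdown library 2. Both values were above the control, but the knockdown libraries differed more from each other than library 2 differed from the control. The log2 differences were 1.23 and 0.35, their mean 0.79 ± 0.45 (SE) and an adjusted p of 0.772 in limma. Without knockdown library 1 the difference is 0.35, and without knockdown library 2 it is 1.23.

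The decoy receptor TNFRSF10D (Entrez 8793, chromosome 8, 23135588 to 23164030, minus strand) had a control level of 16.2 FPKM, with 23.2 in library 1 and 25.1 in library 2. The knockdown values lay close together, at 24.2 ± 1.36 FPKM (SD, n = 2). The mean log2 difference was 0.55 ± 0.40 (SE; limma, adjusted p 0.831).

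FAS (Entrez 355, chromosome 10, 88990582 to 89015785, plus strand) had the lowest level per length in the control, at 2.05 FPKM, and reached 3.66 in library 1 and 4.35 in library 2. Both lay above the control, at 4.01 ± 0.493 FPKM (SD, n = 2). The log2 differences were 0.61 and 0.81, with a mean of 0.71 ± 0.44 (SE; limma, adjusted p 0.809). The scale understates differences of genes as low as FAS, and with a pseudocount of 0.1 the mean was 0.93, while with a pseudocount of 5 it was 0.35.

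The adaptor FADD (Entrez 8772, chromosome 11, 70203163 to 70207390, plus strand) was at 16.8 FPKM in the control, 19.5 in library 1 and 16.1 in library 2. Knockdown library 1 lay a little above and library 2 a little below the control. The mean log2 difference was 0.075 ± 0.41 (SE; limma, adjusted p 0.985). CASP8 (Entrez 841, chromosome 2, 201233443 to 201287711, plus strand) had the same order of libraries, at 17.2 FPKM in the control, 19.9 in library 1 and 16.6 in library 2. Its mean log2 difference was 0.074 ± 0.41 (SE; limma, adjusted p 0.986). The SE of these 2 genes is wide, so a difference as large as that of TNFRSF10D could not be told from none.

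CFLAR (Entrez 8837, chromosome 2, 201116104 to 201176687, plus strand) was at 4.74 FPKM in the control, 4.82 in library 1 and 2.44 in library 2. Library 2 stood apart, and library 1 was level with the control. The log2 differences were 0.021 and -0.74, and the mean of -0.36 ± 0.48 (SE) had an adjusted p of 0.923 in limma. The negative mean rests on knockdown library 2, since without it the difference is 0.021.

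On the same scale 2 members, TNFRSF10A and FAS, were at least 1.5-fold higher in both knockdown libraries, where 5.52% of all genes tested were, and 0 were at least 1.5-fold lower in both, where 7.4% of all genes were. TNFRSF10D was just short of that bound in library 1, at 0.50 against 0.58 that 1.5-fold gives. With a lower bound, 0.32 on the log2 scale, the 4 receptors were all higher in both libraries, against 13.6% of genes. At 2-fold it was TNFRSF10A alone, against 1.21% of genes. Higher in both libraries by any amount were 4 of the 7, against 31.7% of genes, lower in both 0 against 37.6%, and 3 lay on opposite sides. The members' median log2 difference was 0.55, 0.50 in library 1 and 0.35 in library 2, and the median of all genes tested was -0.05. The differences of libraries 1 and 2 share the control library, so its own deviation enters both.

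**Figure D2:**
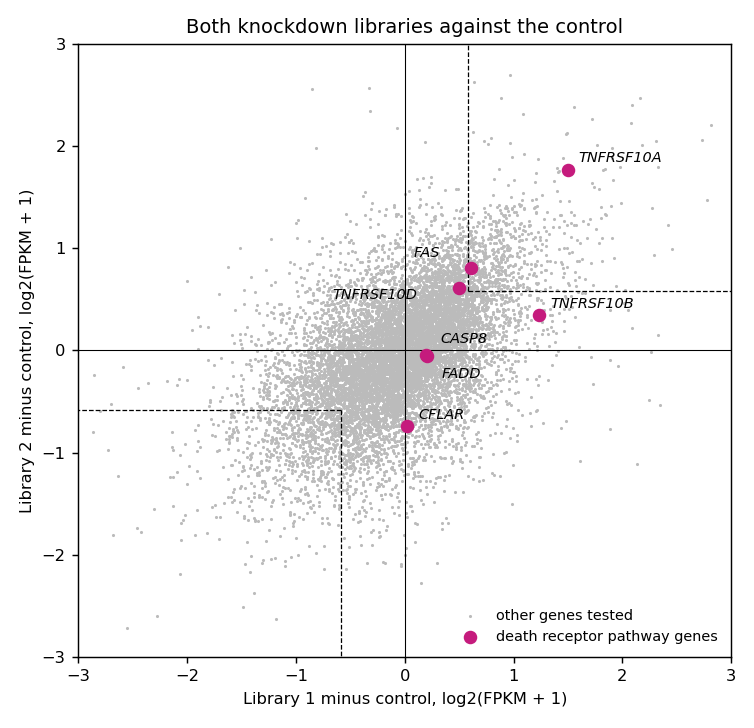
Difference from the control on the log2(FPKM + 1) scale in knockdown library 1 (x axis) and knockdown library 2 (y axis), for the 7 members (large points) and the other genes tested (grey). Dashed lines mark 1.5-fold in both libraries, and 6 genes lie outside the plotted range. TNFRSF10A and FAS lie inside the upper right corner, TNFRSF10B is high in library 1 mainly, and CFLAR is low in library 2 alone.

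The counts behind these values were large enough that counting error was smaller than most of the differences. The smallest whole reads that give the FPKM of TNFRSF10A were 542 in the control, 1634 in library 1 and 2101 in library 2. The fold over the control was 2.97 in library 1 (exact 95% interval 2.70 to 3.28, conditional binomial) and 3.61 in library 2 (3.28 to 3.97). Such an interval compares 2 libraries, covers counting error only, and is at its widest because the true reads may be a whole multiple. The interval of every receptor among the members lay above 1 in both libraries. TNFRSF10B had folds of 2.38 (2.28 to 2.49) and 1.28 (1.22 to 1.34), and TNFRSF10D 1.44 (1.32 to 1.56) and 1.56 (1.43 to 1.69). FAS, the member with the fewest such reads in the control, had 1.78 (1.53 to 2.08) and 2.12 (1.83 to 2.46).

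For the adaptor and CASP8 the intervals were nearer to 1. FADD was at 1.16 of the control in library 1 (1.03 to 1.32) and 0.960 in library 2 (0.844 to 1.09), and CASP8 at 1.15 (1.05 to 1.27) and 0.965 (0.877 to 1.06). In library 2 both intervals include 1. CFLAR was at 1.02 of the control in library 1 (0.946 to 1.09) and at 0.514 in library 2 (0.472 to 0.561), so it was apart from the control in library 2. Between the knockdown libraries, library 2 had 0.536 times the TNFRSF10B of library 1 (0.515 to 0.557) and 0.506 times its CFLAR (0.464 to 0.551). These are the 2 members at least 1.5-fold apart between the knockdown libraries, as were 26.7% of all genes tested.

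**Figure D3:**
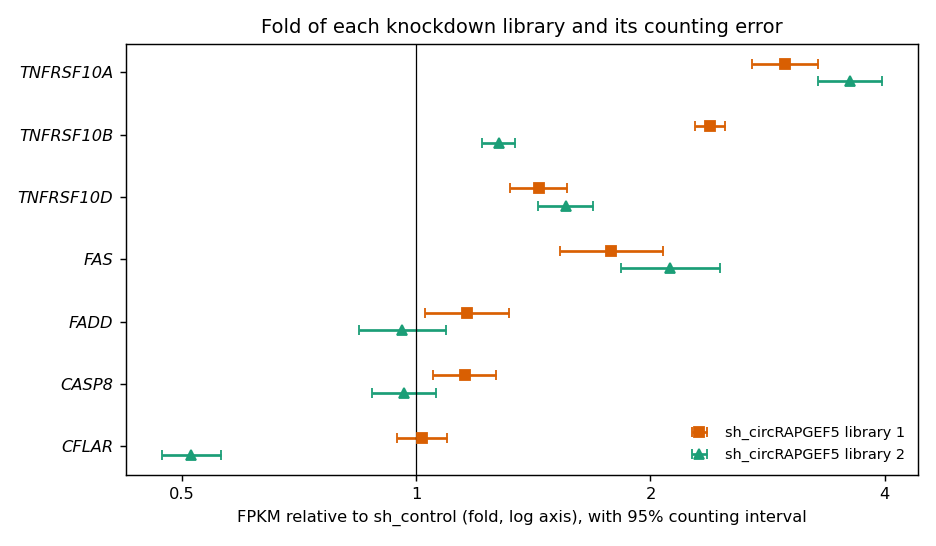
Fold of each knockdown library over the control (log axis) with its exact 95% counting interval, for the 7 members (square, library 1; triangle, library 2; the line marks the control level). Receptor intervals lie above 1 in both libraries, and the CFLAR interval of library 2 ends at 0.561.

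The balance between members within a library does not depend on its depth. TNFRSF10A and TNFRSF10B together were at 55.7 FPKM in the control, 140.2 in library 1 and 99.98 in library 2, or 2.51 and 1.79 times the control. The decoy TNFRSF10D was at 0.290 of that sum in the control, 0.166 in library 1 and 0.251 in library 2. FADD was at 0.973 of CASP8 in the control and at 0.979 and 0.969 in the knockdown libraries, a spread far inside the counting error of either gene. CFLAR was at 0.275 of CASP8 in the control, 0.242 in library 1 and 0.147 in library 2. The level of each of these ratios depends on gene length: FPKM of CFLAR was divided by 18974 bases, that of CASP8 by 3010 or a whole multiple. CFLAR had 1465 whole reads in the control, CASP8 846 or a multiple. The order of the FADD and CFLAR ratios to CASP8 over the libraries does not depend on these lengths. Gene-level values do not separate the long and short protein forms of CFLAR or the splice forms of CASP8 and FAS.

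The gene models limit some values. For FAS the length behind FPKM was 8010 bases, while GENCODE 29 annotates 4253 exon bases, so its level per length may be understated. For every other member the smallest such length was below the annotated exon bases, most of all for CASP8, at 3010 against 7243. For TNFRSF10B it was 3998 against 5158. Levels per length of these members may be overstated, unless the length was a whole multiple. FADD shared 51.1% of its 50-base stretches with an opposite-strand transcript, AP000879.1. For FAS the shared part was 7.09%, with ACTA2, the smooth muscle actin gene on the opposite strand, and for TNFRSF10A 12.4%, of which TNFRSF10A-AS1 held 5.97%. CFLAR shared 14.1% with other genes, IMPDH1P10 at 6.34%, and TNFRSF10B, TNFRSF10D and CASP8 shared at most 1.74%. The library kit keeps strand, but the strand setting of the counting is not given in the sources used here, so reads of such partners cannot be told apart.

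Genes next to the members were counted by locus. TNFRSF10B, TNFRSF10D and TNFRSF10A lie within 205 kb on chromosome 8. Of 14 other tested genes within 500 kb of them, 4 were higher and 4 lower in both knockdown libraries, against 31.7% and 37.6% of all genes tested. Of the 14, 0 were called by limma, and log2 differences ran from -0.70 to 0.47 with a median of -0.004. The nearest were RHOBTB2 at -0.70, which overlaps TNFRSF10B, TNFRSF10C at 0.28 and CHMP7, an ESCRT-III protein, at 0.38. In libraries 1 and 2, TNFRSF10C (1.27 and -0.71) and CHMP7 (0.82 and -0.05) lay on opposite sides of the control. Around CASP8 and CFLAR, which span 172 kb on chromosome 2, 8 of 11 tested neighbours were higher in both libraries and 1 was lower, where 31.7% and 37.6% of all genes were. The nearest were NDUFB3 at 0.35, FAM126B at 0.57 and TRAK2 at 0.38. Around FAS, 1 of 6 tested neighbours was higher and 3 were lower in both libraries, against the same shares of all genes. Their median log2 difference was -0.42. ACTA2 was at 8.28 FPKM (control), 10.7 (library 1) and 1.77 (library 2), so in library 2 it lay opposite to FAS. STAMBPL1, a deubiquitinase gene, was at 1.37 FPKM against 3.77 and 4.07, and LIPA, the lysosomal acid lipase, at 19.8 against 17.3 and 3.90. Around FADD, 2 of 5 tested neighbours were higher and 0 lower in both libraries, again against these shares. ANO1 was at -0.30, PPFIA1 at 0.11 and CTTN at 0.37. In libraries 1 and 2, ANO1 (-0.74 and 0.13) and PPFIA1 (-0.06 and 0.28) lay on opposite sides of the control.

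Ligands of the death receptors were barely present in these cells. TNFSF10, which encodes TRAIL, had 0.0205 FPKM in the control and was listed at 0 in both knockdown libraries. TNF was at 0.110, 0.0361 and 0 FPKM, and the 4 ligands in the table summed to 0.777, 0.960 and 0.243 FPKM. None of the 4 passed the filter on low values, and FASLG was not analysed here.

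The other TNF family receptors went different ways. Of 6 tested, 1 was higher and 1 lower in both libraries, where 31.7% and 37.6% of all genes tested were. The other 4 lay on opposite sides, and none was called. TNFRSF6B, a soluble decoy for FAS ligand, was at 4.04 FPKM (control), 9.66 (library 1) and 24.1 (library 2), with a log2 difference of 1.70 ± 0.52 (SE; limma, adjusted p 0.519). TNFRSF10C (DcR1), the TRAIL decoy next to TNFRSF10D, was at 6.38 FPKM against 16.8 and 3.52, above the control in library 1 and below it in library 2. TNFRSF21 (DR6) was at 13.03 against 12.1 and 36.2, and NGFR at 4.64 against 1.53 and 3.72. The TNF receptor TNFRSF1A, at 39.5 against 45.8 and 36.9, and TNFRSF25 (DR3), at 12.9 against 17.3 and 10.6, had the library order of FADD and CASP8. Neither falls under the naming rule, and both are given as the remaining tested receptors of the list. Over all genes tested, 3439 of 11216 lay on opposite sides of the control.

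Partners in the receptor-proximal complexes went both ways. Of 13 tested, 2 were higher and 5 lower in both libraries, where 31.7% and 37.6% of all genes tested were. Of the 13, 0 were called, 0 were at least 1.5-fold in both in either direction, and the median log2 difference was 0.02. The 3 subunits of the linear ubiquitin ligase LUBAC were lower in both: RBCK1 (HOIL-1) at 31.9 FPKM against 26.3 and 19.3, SHARPIN at 31.0 against 23.8 and 20.2, and RNF31 (HOIP) at 24.1 against 19.1 and 18.5. RNF31 is no gene of the naming rule and was picked once its values had been seen. The adjusted p in limma was 0.861 for RBCK1, 0.859 for SHARPIN and 0.909 for RNF31. The TNF receptor adaptor TRADD was at 7.25 FPKM in the control, 14.6 in library 1 and 7.34 in library 2, and DAXX at 34.4 against 43.6 and 46.8. CASP10, the caspase most like CASP8, was under the filter, at 0.450 FPKM against 0.272 and 0.905.

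Downstream of CASP8, 10 of 17 tested genes were above and 2 below the control in both libraries, with 0 called and a median log2 difference of 0.28. Over all genes tested 31.7% were higher and 37.6% lower in both. BAK1, a pore-forming BCL2-family member of the mitochondrial outer membrane, was at 12.6 FPKM (control), 24.8 (library 1) and 22.4 (library 2) (log2 difference 0.85 ± 0.40 (SE), limma adjusted p 0.715), the 1 gene of the list at least 1.5-fold higher in both. HTRA2, a mitochondrial protease that antagonises IAP proteins, was at 8.17 against 10.1 and 18.1, and DFFA, the inhibitor of the apoptotic nuclease DFFB, at 13.5 against 15.5 and 31.5. In HTRA2 and DFFA library 2 was the higher, unlike TNFRSF10B. The authors' table annotates 123 genes to KEGG apoptosis, 6 of the members among them. Of its 101 tested genes other than the members, 9 were at least 1.5-fold higher and 5 lower in both libraries, where 5.52% and 7.4% of all genes were, 0 were called, and the median was 0.14.

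Among genes of programs known to act on death receptor genes, those of the integrated stress response and of NF-kB were counted. Of 12 integrated stress response genes, 5 were higher and 5 lower in both and 0 were called. Over all genes tested 31.7% were higher and 37.6% lower in both, and 0.0178% were called. DDIT3 (CHOP), a factor known to activate TNFRSF10B, was at 19.8 FPKM (control), 22.0 (library 1) and 25.7 (library 2). DDIT3 was named for that role and not by the naming rule. Its mean log2 difference was 0.25 ± 0.40 (SE; limma, adjusted p 0.935), and library 2 was the higher, unlike TNFRSF10B. In the same list ASNS was at -1.48, CHAC1 at -0.93, ATF3 at 0.93 and DDIT4 at -0.74. The value of DDIT4 rests on library 1, at -1.50, with library 2 at 0.02. Of 7 tested NF-kB targets, 4 were higher and 2 lower in both, against the same shares of all genes, again with 0 called. The largest were ICAM1 (1.39), RELB (0.66), NFKBIA (-0.51) and NFKB2 (0.47).

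**Figure D4:**
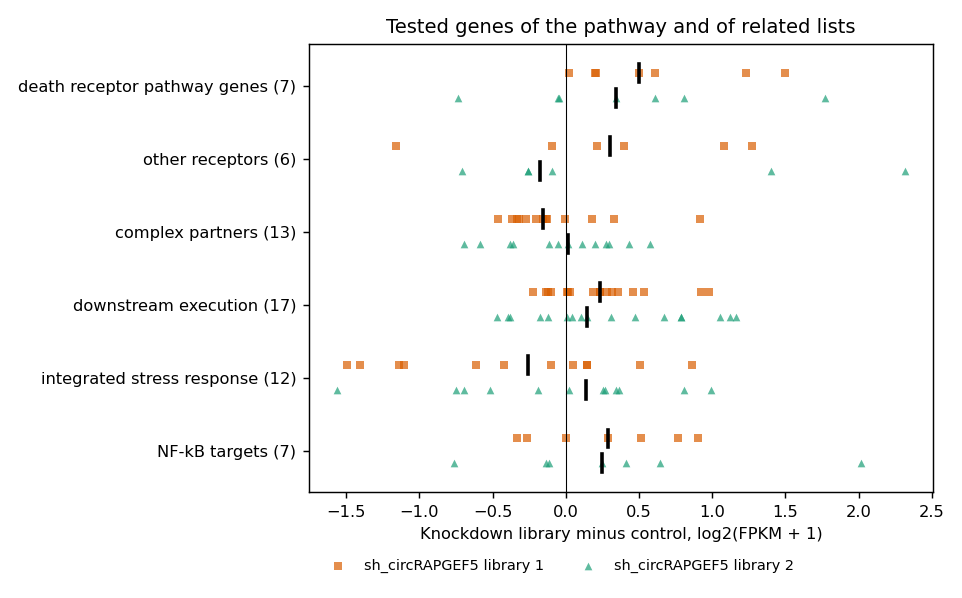
Difference from the control on the log2(FPKM + 1) scale for every tested gene of the 7 members and of 5 related lists, with the number of genes in brackets (squares, knockdown library 1; triangles, knockdown library 2; black bars, medians). The median of the members is 0.50 in library 1 and 0.35 in library 2.

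Likeness of pattern was measured as the distance between a member and another gene in the plane of the 2 log2 differences, among genes with a mean FPKM within 2-fold of the member, over 3 libraries only. FADD and CASP8 had a distance of 0.01 from each other. FADD was the nearest of 4393 genes to CASP8, and CASP8 the third nearest of 4449 to FADD, after MRRF and WASHC4, but 83 genes lay within 0.1 of FADD. TNFRSF10A had 0 genes within 0.1 among 3203, the nearest being F3 (tissue factor) at a distance of 0.30, LYAR at 0.32 and EXOSC5 at 0.34. A count within a fixed distance falls where genes are sparse, and TNFRSF10A ranked 37 from the highest of the 11216 genes by mean difference. F3 was at 7.90 FPKM in the control, 19.5 in library 1 and 28.6 in library 2. TNFRSF10B had ERRFI1, an inhibitor of the EGF receptor, at 0.09, then ITGB4 and ELOVL1 at 0.12 each. ERRFI1 was at 55.7 FPKM against 126 and 68.9. For CFLAR the nearest were TCEA2, ASPHD2 and PKIG, for FAS MREG, MAP3K5 and CPNE8, and for TNFRSF10D CBWD1, YIF1A and IPO11.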

How the data were processed

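The authors deposited FPKM values for 15625 genes with the names of KEGG pathways (other values, annotation text the authors deposited). Trimmomatic and HISAT2 with the GRCh38.p13 build are named per the submitters' processing notes. For the versions, the gene annotation, the counter and whether it used strand, the sources used here give nothing. The library kit, per the labels' protocols, was TruSeq Stranded mRNA LT. Genes with a mean of at least 1 FPKM over the 3 libraries were tested on log2(FPKM + 1) with limma 3.58.1 (R 4.3.3) with a mean-variance trend and Benjamini-Hochberg adjustment over 11216 genes, threshold 0.05. The 3 libraries leave 1 residual degree of freedom, to which limma added 10.92 prior degrees, and the single control is taken to vary as the knockdown pair does. An exact permutation cannot go below p = 0.33. Since no separate cultures are named, a p-value reflects the spread among these libraries alone, and that spread may be technical. In bulk samples fewer cells with a transcript and less of it per cell cannot be told apart.

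Whole reads, library sizes and lengths were derived from the FPKM values; this step and the limma step were tested on simulated data. Positions, overlaps and 50-base sharing come from GENCODE 29 (GRCh38), whose primary chromosomes have the coordinates of GRCh38.p13. Named genes were the members, up to 4 genes per list with the largest mean difference, up to 3 nearest neighbours per locus and the 3 genes most like each member. Some other genes were named outside this rule, such as RNF31, DDIT3, TNFRSF1A and TNFRSF25. Members and lists were chosen with earlier results of these data known. Alternatives were other pseudocounts, filters, scalings, limma settings and fold bounds, and each knockdown library left out. Some genes and 1 gene list are not reported here.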

Additional observations from a re-analysis of the deposited data

How the results depend on the processing

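Of 75 recomputed member differences, 61 came from other settings of the fit, and all 61 kept their direction and stayed uncalled. The other 14, with 1 knockdown library left out, have no test; 11 kept their direction and 3 changed sign: with either library left out FADD ran from -0.055 to 0.21, CASP8 from -0.049 to 0.20 (both negative without knockdown library 1) and CFLAR from -0.74 to 0.021 (positive without knockdown library 2). FAS and CFLAR gave no value with a mean FPKM of at least 5, since neither reaches it. No member was called by limma under any setting (in the main fit 1 member, TNFRSF10A, had an unadjusted p under 0.05). The 2 calls over all genes became 1 with a pseudocount of 5, without the trend and with robust fitting, and 0 with no filter, with quantile normalization and with a prior of 5 degrees of freedom. The 2 members at least 1.5-fold in both libraries became 1 with a pseudocount of 5, a mean FPKM of at least 5 or a 2-fold bound, and 4 with the lower bound of 0.32 (log2). Without knockdown library 1, 3 members were at least 1.5-fold higher and 1, CFLAR, lower in library 2. Without knockdown library 2, 3 were higher and 0 lower in library 1. Over all genes the 1449 became 721 with a pseudocount of 5, 327 at 2-fold and 3425 at the lower bound, and 3294 to 3458 with 1 knockdown library. Leaving out a library leaves no residual degrees of freedom, so those are values with no test. No paired analysis was possible because the control library carries no replicate number and the groups share fewer than 2 numbers. In the control FAS, with 268 smallest whole reads, was the member most limited by depth.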

Other observations

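The TRAIL receptors with a full death domain differed in their proportions from library to library. TNFRSF10A was at 0.285 of TNFRSF10B in the control, and at 0.356 (library 1) and 0.805 (library 2) in the knockdown pair, a ratio added after the data were seen. In knockdown library 1 both receptors were above the control, TNFRSF10B by 60.0 FPKM and TNFRSF10A by 24.4, and in library 2 TNFRSF10A was 32.2 FPKM and TNFRSF10B 12.02 FPKM above it. The decoys differed from each other in the same libraries: TNFRSF10D was at 1.44 and 1.56 times the control, while TNFRSF10C had log2 differences of 1.27 and -0.71. Whether hairpin, harvest time or culture goes with these differences between the knockdown libraries cannot be told apart from the labels.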
